A study of Mus musculus with 16 samples.

Results

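The Sox transcription factors examined here were 10 genes, Sox2, Sox4, Sox5, Sox6, Sox8, Sox9, Sox10, Sox11, Sox17 and Sox18, chosen by name from the 55487 gene symbols of a single-cell RNA count table of the mouse spinal cord. Each was followed through 17 clusters of cells and through the course of a spinal cord injury. Sox proteins bind the minor groove of DNA through a high-mobility-group (HMG) box and bend the helix, and the family is divided into groups by the sequence of that box. In the central nervous system, Sox2 keeps neural stem and progenitor cells, Sox9 starts gliogenesis and persists in astrocytes, and Sox10 with Sox8 drives the oligodendrocyte lineage, in which Sox5 and Sox6 hold back maturation. Sox4 and Sox11 act in immature neurons and other progenitors, and Sox17 and Sox18 act in the endothelium of arteries and other vessels.

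The study asked how loss of Ryk, a Wnt receptor, changes the response of astrocytes to injury. Spinal cords were taken from mice at 8-10 weeks of age, either Ryk+/+,GFAPcreERT2 (here WT) or Rykfl/fl,GFAPcreERT2 (here cKO). Each genotype was sampled uninjured (labelled Sham) and at 1, 7 and 14 days (d) after a lesion of the dorsal columns at the fifth cervical level, with 2 mice for each of the 8 conditions. All mice carried GFAPcreERT2, a Cre that needs tamoxifen and is driven by the GFAP promoter, so Ryk is deleted only in cells in which that promoter is active. The table held 18203 cells, and each gene's value was a count of unique molecular identifiers (UMIs) read near the 3′ end of transcripts. The injured tissue was cut around the lesion core.

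The libraries were uneven. The library of WT 1 d replicate 2 held 1 cell with 266 UMIs and none of a member, and was left out, so the WT mice at 1 d were represented by 1 mouse and 15 mice remained, with 536263 to 9008729 UMIs each. The 4 libraries of replicate 1 at 1 d and 7 d were shallow, with median UMIs per cell of 414 to 548 against 1040.5 to 3637 in the other 11. These 4 also shared cell barcodes: 335 of their 5237 cells (6.40%) had a barcode found in another of the 4, against 50 of 12966 cells (0.386%) among the other libraries. Of the 119 barcodes shared among the 4, 103 had all their cells in 1 cluster, and the source of the sharing was not tested. The largest overlap, 115 barcodes, was between WT 1 d replicate 1 and WT 7 d replicate 1. In 6 mice of replicate 2 the condition written in the cell names differed from the condition in the sample label, and the label was used. These features were varied by leaving out the cells or libraries and by refitting with the conditions of the cell names. No member passed the test described below in any class with the conditions of the cell names, nor without the cells with shared barcodes, nor without the 4 shallow libraries, where only the comparisons at 7 d and 14 d could be fitted. The cluster with the highest mean was unchanged for 10 of 10 members without the shared barcodes, and for 8 of 10 without the shallow libraries.

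Ryk itself was counted in every mouse. In CPM, the usual scaling of a gene's UMIs to the total of its library, and over all cells, Ryk was 70.9 and 45.3 in the uninjured WT mice and 58.1 and 65.7 in the uninjured cKO mice. After injury Ryk in the WT mice was 74.6 (1 d), 80.0 and 68.6 (7 d) and 52.0 and 69.8 (14 d). In the cKO mice Ryk was 45.0 and 54.1 (1 d), 51.8 and 82.4 (7 d) and 66.2 and 69.5 (14 d). Over all cells the genotypes overlapped in the uninjured mice and at 7 d and 14 d, while at 1 d both cKO values were below that of the WT mouse. In astrocytes, the cells in which the GFAP promoter is active, the WT mice had 126 and 70.1 uninjured, 103 (1 d), 169.5 and 131 (7 d) and 115 and 112 CPM (14 d). The cKO mice had 68.8 and 116 uninjured, 24.0 and 79.02 (1 d), 94.0 and 126 (7 d) and 136 and 135 CPM (14 d). In these astrocytes each cKO value was below each WT value at 1 d and at 7 d, on as few as 1 UMI in cKO 1 d replicate 1, each was above at 14 d, and the uninjured mice overlapped. A 3′ tag that lies outside the deleted part of a gene checks nothing. Where the counted tags lie relative to the deleted part of Ryk was not examined, so deletion is not read from these counts.

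The members were first described by cell type, as the mean ± SD of CPM over the mice with enough cells of a cluster. The clustering had used these counts already, so the levels are given as a description, without a test. Sox2, the factor of neural stem cells, was highest in Cluster 13, with 516 ± 183 CPM (n = 8). This level depended on the average, at 321 CPM for the mean of the per-cell CPM and 368 CPM with cells thinned to 1000 UMIs, and Cluster 13 stayed the highest in both. Cluster 13 is labelled unknown in the deposited cell table. Its 4 ependymal markers summed to 2903 CPM, with Tmem212 the most abundant at 1047 CPM, against at most 202 CPM in any other cluster, pericyte Cluster 9. Cluster 13 also held 3092 CPM of oligodendrocyte markers, 1521 CPM of neuronal markers and 1219 CPM of astrocyte markers. Sox2 followed in astrocyte Cluster 5 with 185 ± 85.7 CPM (n = 13), and was lower there than in Cluster 13 in 8 of 8 mice. Next came the oligodendrocyte precursor Cluster 11 with 123 ± 64.8 (n = 13), astrocyte Cluster 7 with 115 ± 45.5 (n = 15) and oligodendrocyte Cluster 4 with 99.4 ± 37.2 (n = 15) CPM, whose order was not separated beyond the spread between mice. In endothelial Cluster 1 and microglial Cluster 6 Sox2 averaged 4.81 and 3.52 CPM. Sox2 lies inside the longer RNA gene Sox2ot on the same strand (chr3:34104270-34682619 on the plus strand), so UMIs in the shared stretch cannot be assigned to one gene with certainty. Sox2ot itself was highest in Cluster 11 with 1446 ± 469 CPM (n = 13), and not in Cluster 13.

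Sox9, the factor of astrocyte fate, had its highest means in the same 2 clusters as Sox2. It was 400.2 ± 136 CPM (n = 8) in Cluster 13 and 283 ± 114 CPM (n = 13) in astrocyte Cluster 5, and the first was the higher in 7 of 8 mice, a gap smaller than the larger SD. With cells thinned to 1000 UMIs the order turned, with 137 CPM in Cluster 13 and 234 CPM in Cluster 5, as it did for the mean of the per-cell CPM, 257 against 289, so no order of these clusters is read for Sox9. Astrocyte Cluster 7 had 189 ± 82.8 CPM (n = 15) and astrocyte Cluster 2 had 72.7 ± 24.0 CPM (n = 9). Cluster 2, although annotated as astrocytes, held 21203 CPM of oligodendrocyte markers against 7838 CPM of astrocyte markers and was not used in the astrocyte comparisons. Cluster 5, which was used, held 13540 against 14832 CPM, and Cluster 7 1902 against 11476 CPM. With Cluster 2 added to the class no member was called either. Sox9 was present in endothelial Cluster 1 at 23.5 ± 9.95 CPM (n = 15).

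Sox10, which commits cells to the oligodendrocyte and Schwann cell lineages, marked the myelinating cells and their precursors. The Schwann cell Cluster 15 had 416 ± 41.8 CPM (n = 4), Cluster 11 had 389.6 ± 212 CPM (n = 13), and oligodendrocyte Clusters 4 and 8 had 309 ± 115 (n = 15) and 281 ± 140.4 (n = 14) CPM. These 4 clusters did not differ beyond the spread between mice, and all stood above neuronal Cluster 3 at 44.5 ± 21.1 CPM (n = 14). Sox8, which acts beside Sox9 and Sox10, was 136 ± 74.0 CPM (n = 13) in Cluster 11 and 102 ± 63.1 CPM (n = 15) in Cluster 4, with the precursors higher in 10 of 13 mice by less than the larger SD. With thinned cells Sox8 in Cluster 11 was 73.1 CPM and Cluster 8 was the highest at 86.7 CPM, so no order is read here. Oligodendrocyte Cluster 8 had 86.1 ± 42.8 (n = 14) and astrocyte Cluster 7 had 62.6 ± 33.1 (n = 15) CPM of Sox8, so this gene ran through both glial lineages.

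Sox5 and Sox6, which lack an activation domain and hold back oligodendrocyte maturation, were counted in several lineages. Sox6 was highest in the precursors, with 1339 ± 335 CPM (n = 13) in Cluster 11. Astrocyte Cluster 7 had 774 ± 155 CPM (n = 15), below Cluster 11 in 13 of 13 mice, and Cluster 13 had 510.2 ± 196 CPM (n = 8). In oligodendrocyte Cluster 4, past the precursor stage, Sox6 averaged 44.9 CPM. Sox5 was as high in the pericyte Cluster 9, at 758 ± 226 CPM (n = 15), as in precursor Cluster 11, at 751 ± 238 CPM (n = 13), and pericytes were the higher in 6 of 13 mice. Astrocyte Cluster 7 had 623 ± 135 CPM (n = 15), Cluster 13 had 444 ± 221 CPM (n = 8) and neuronal Cluster 3 had 241 ± 103 CPM (n = 14) of Sox5. Endothelial Cluster 1, whose cells were the most numerous in these data, averaged 7.60 CPM. Both genes span introns that hold other RNA genes, among them Sox5it on the strand of Sox5 and the antisense Sox5os1.

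Sox4 and Sox11, factors of immature neurons and progenitors, both had their highest mean over mice in Cluster 11. Sox4 was 165 ± 125 CPM (n = 13) there, 121 ± 63.8 CPM (n = 8) in Cluster 13 and 101 ± 35.0 CPM (n = 14) in microglial Cluster 6, an order that did not hold beyond the spread between mice. The other microglial cluster, 10, had 42.4 ± 17.2 CPM (n = 14). Sox11 was sparse, with 354 UMIs in all cells, and had 25.5 ± 21.2 CPM (n = 13) in Cluster 11, 20.9 ± 27.9 CPM (n = 13) in astrocyte Cluster 5 and 18.0 ± 11.4 CPM (n = 14) in neuronal Cluster 3. Its SD was large beside its mean in each, so no order could be read for Sox11.

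Sox17 and Sox18, the vascular members, were concentrated in the clusters of vessel cells. Sox17 was 221 ± 53.7 CPM (n = 15) in endothelial Cluster 1 and 110.5 ± 64.5 CPM (n = 15) in pericyte Cluster 9, with the endothelium higher in 15 of 15 mice. Sox18 was 180.4 ± 93.3 CPM (n = 15) in Cluster 1 and 93.3 ± 92.9 CPM (n = 15) in Cluster 9, again with the endothelium higher in 15 of 15 mice, although the gap was smaller than the larger SD. In the other 15 clusters the highest mean was 9.37 CPM for Sox17 and 10.4 CPM for Sox18. The pericyte cluster also held endothelial markers, 4698 CPM with Flt1 at 2414 CPM, beside 13605 CPM of pericyte markers. Their part in the pericyte values of Sox17 and Sox18 was not tested. Of the other Sox genes with at least 100 UMIs, Sox7 and Sox13 were also highest in Cluster 1, with 77.2 ± 31.2 (n = 15) and 111 ± 35.8 (n = 15) CPM. Sox1 and Sox21 had their highest means in Cluster 13, with 41.7 ± 18.7 (n = 8) and 42.4 ± 44.2 (n = 8) CPM. Sox12 had its highest mean in Cluster 11 with 16.4 ± 14.7 (n = 13) CPM. For Sox1, Sox12, Sox13 and Sox21 the lead over the next cluster was smaller than the larger SD, unlike that of Sox2.

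**Figure D1:**
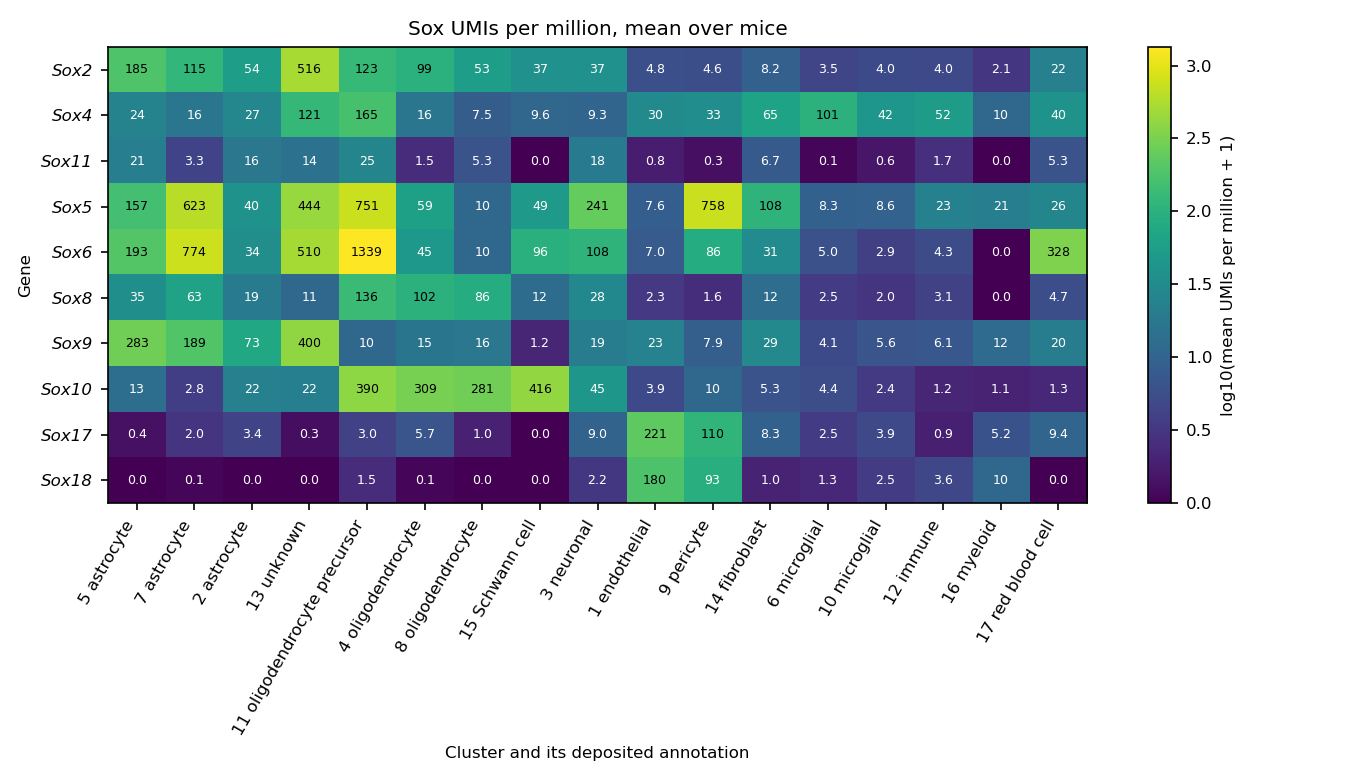
Mean CPM of the 10 Sox members (vertical axis) in the 17 annotated clusters (horizontal axis), averaged over mice; the colour is log10 of the mean CPM plus 1 and each cell prints the mean. Sox17 and Sox18 stand out in Clusters 1 and 9, Sox10 in the oligodendrocyte lineage and Schwann cells, and Sox2 and Sox9 in Cluster 13 and the astrocytes.

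Per cell, a member was seen in a minority of cells in most of the types that carry it. Sox10 had a UMI in 51.7% of the cells of Schwann cell Cluster 15 (median depth 2571 UMIs), 29.1% of Cluster 4 (1115 UMIs) and 33.9% of Cluster 11 (1000 UMIs). The share was 0.786% in endothelial Cluster 1 (890.0 UMIs) and 12.2% in neuronal Cluster 3 (1848 UMIs). Sox9 had a UMI in 33.2% of Cluster 13, 30.5% of Cluster 7 and 27.0% of Cluster 5 (1377 UMIs). It was seen in 0.684% of microglial Cluster 6 (780.5 UMIs), 5.00% of Cluster 1 and 7.44% of Cluster 3. Sox17 was counted in 27.6% of Cluster 1, against 0.114% of Cluster 5. Sox18 was counted in 21.9% of endothelial Cluster 1, against 0.152% of Cluster 6, at median depths of 890.0 and 780.5 UMIs. Sox2 had a UMI in 39.1% of Cluster 13 (1707 UMIs) and 18.6% of Cluster 5, against 0.608% of Cluster 6. Sox6 had a UMI in 70.3% of astrocyte Cluster 7, whose median depth of 2882 UMIs was the greatest of all clusters, against 1.37% of Cluster 6. For Sox11 the highest share was 5.34%, in Cluster 11, with 4.18% in Cluster 3 and 2.22% in Cluster 5, against 0.0760% in Cluster 6.

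Pairs of related members were then counted in the same cells, with all UMIs and after each cell was thinned to 1000 UMIs. Sox17 and Sox18 were found together in 528 of 4201 endothelial cells (12.6%), and in 62 of the 1978 that could be thinned (3.13%). Sox2 and Sox9 were found together in 64 of 271 cells of Cluster 13 (23.6%), and in 16 of 176 thinned cells (9.09%). Sox8 and Sox10 were found together in 69 of 637 precursors (10.8%), and in 10 of 319 after thinning. For Sox5 and Sox6 the highest share moved with depth, from 563 of 1012 cells of astrocyte Cluster 7 (55.6%) to 112 of 319 thinned cells of precursor Cluster 11 (35.1%). Sox9 and Sox10 were together in at most 53 of 2486 cells of any cluster, the neuronal Cluster 3 (2.13%). After thinning their highest share was 1 of 319 cells of Cluster 11 (0.313%). With all UMIs, the product of the 2 genes' own shares was 0.904% in Cluster 3, below the share found. In Cluster 13 it was 2.57%, above the 1.48% found. Sox4 and Sox11 were together in 18 of 637 cells of Cluster 11 (2.83%). After thinning they were together in 0 of 319 there and in at most 1 of 176 cells of any cluster, Cluster 13. The highest share of each of the 6 pairs fell after thinning, and it was low both for Sox4 with Sox11 and for Sox9 with Sox10.

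Across the 17 clusters, the members could be set beside every other gene. The likeness is Pearson's r of log2(mean CPM + 10) over 17 clusters, among 11603 genes with at least 500 UMIs. The clusters share their mice and differ in depth, and r is a description without a p. For Sox2 the most similar genes were Erbb4 (0.907), C130071C03Rik (0.903), Slc4a8 (0.894), and for Sox9 they were Mlc1 (0.932), Bbox1 (0.927), Pax6 (0.920). Mlc1 encodes a membrane protein of astrocyte end-feet. For Sox10 they were Gjc3 (0.955), Ugt8a (0.951), Fa2h (0.9504), of which Ugt8a and Fa2h make myelin lipids, and for Sox8 they were Ncam2 (0.953), Lrp1b (0.952), Lrrn1 (0.943). Sox5 was closest to Carmil1 (0.908), Per2 (0.902), Dennd2a (0.900), and Sox6 to Mro (0.867), Adra1a (0.860), Zfpm2 (0.856). Sox4 had its nearest genes in Pxdc1 (0.847), Ssbp1 (0.787), Pdcd4 (0.779), the lowest r of the members. Sox11 was closest to Bex2 (0.897), Gap43 (0.894), Nsg1 (0.888), and Gap43 is a protein of growing axons. Sox17 was closest to Foxq1 (0.984), Foxl2 (0.977), Depp1 (0.970), and Sox18 to Foxf2 (0.987), Srarp (0.984), Mmrn2 (0.977), among which Foxq1, Foxl2 and Foxf2 are forkhead factors. Among the members themselves Sox17 and Sox18 had r = 0.960, Sox5 and Sox6 had r = 0.810 and Sox9 and Sox10 had r = −0.208.

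The HMG box is the feature that defines the family, so its coding sequence was read from the GENCODE vM21 transcripts of the mouse genome (GRCm38). In each member it was taken as a window of 237 bases, a length set beforehand. The windows were in frame and were those with the most bases in common with a window of Sox2. Members of the same group were 81.4 to 89.0% identical in 6 pairs, highest for Sox4 and Sox11, while members of different groups were 52.3 to 76.0% identical in 39 pairs. The boxes of Sox8 and Sox10 are printed because these relatives were found together in precursors, while Sox8 was also found in astrocytes. They are alike in 193 of 237 bases, and capitals mark the 44 that differ, 33 of them at the third base of a codon. The box of Sox8 spans chr17:25568946-25570231 on the minus strand and that of Sox10 chr15:79159289-79163410 on the minus strand, each in 2 coding exons whose intron is left out of the sequence.
Sox8: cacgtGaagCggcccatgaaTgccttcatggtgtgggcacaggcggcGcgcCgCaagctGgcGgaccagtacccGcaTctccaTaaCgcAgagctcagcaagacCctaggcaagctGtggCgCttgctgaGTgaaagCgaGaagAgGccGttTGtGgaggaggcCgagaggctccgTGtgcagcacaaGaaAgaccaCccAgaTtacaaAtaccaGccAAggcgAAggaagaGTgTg
Sox10: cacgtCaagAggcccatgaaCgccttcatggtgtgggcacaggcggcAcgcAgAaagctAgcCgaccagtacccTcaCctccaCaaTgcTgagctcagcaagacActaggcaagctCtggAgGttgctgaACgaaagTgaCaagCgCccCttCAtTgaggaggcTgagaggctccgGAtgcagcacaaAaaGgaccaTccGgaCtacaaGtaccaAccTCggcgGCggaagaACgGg

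The design compares injury with no injury, and cKO with WT after injury. UMIs were summed per mouse in 6 cell classes, and each gene was tested with edgeR's quasi-likelihood test over all genes of the class. The 3 times were each set against the same uninjured mice, so they are not independent of each other. Genotype was compared as the mean of the differences at 1 d, 7 d and 14 d. A gene was called at a Benjamini-Hochberg adjusted p under 0.05 over all genes tested. In 144 tests of members, 0 were called with edgeR, and 9 had an unadjusted p under 0.05. DESeq2 called 0, with 4 under 0.05 unadjusted, and edgeR with the replicate number as a block called 0, with 7. The lowest edgeR adjusted p of any member was 0.253, for Sox5 in neurons at 14 d. Of all genes, edgeR gave an unadjusted p under 0.05 to 1340 of 10238 in neurons at 14 d, 871 at 7 d and 382 between genotypes. It did so for 982 of 9268 genes in microglia, 833 of 10985 in endothelial cells and 291 of 5417 in precursors, each at 14 d. The 9 member tests with such a p with edgeR fell in these comparisons, and they are no result about the family.

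Few genes of any kind passed in these classes with the main fit. In astrocytes 0.125% of the genes tested were called at 1 d, 0% at 7 d, 0% at 14 d and 0% between genotypes. In oligodendrocytes the shares were 0%, 0%, 0% and 0%, and in oligodendrocyte precursor cells 0%, 0%, 0% and 0%, in the same order. Endothelial cells had 0.0091%, 0%, 0% and 0%. Neurons had 0%, 0.00977%, 0.791% and 0%, and microglia 0.248%, 0.108%, 0.345% and 0%. A count of 0 among 2 to 8 Sox members per class is thus close to what these shares of the main fit give, and it is no result about the family. With the replicate block, edgeR called 6 genes in place of 0 in oligodendrocytes at 14 d, 4 in place of 0 in astrocytes at 14 d and 1 in place of 0 between genotypes. It called 7 in place of 1 in neurons at 7 d, 1 in place of 0 at 1 d in oligodendrocytes and in their precursors, and 15, 18 and 49 in place of 23, 10 and 32 in microglia at 1 d, 7 d and 14 d. With the series of animal numbers as a covariate the genes called over the 4 comparisons rose from 13 to 293 in astrocytes, 1 to 303 in endothelial cells, 65 to 140 in microglia and 82 to 1143 in neurons, and with no filter on low counts to 156, 403, 460 and 541. None of these was a Sox member, and the share of all genes called thus depended on the setting. In 24 of the 144 tests, 14 of them in neurons, a condition had no UMI of the member, and for these no fold is given.

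In astrocytes, Clusters 5 and 7 together, 7 members were tested and none had an unadjusted p under 0.05 with edgeR, DESeq2 or the block. The values below are normalized CPM, scaled by the TMM factors of each class. The SE of a log2 difference, here and below, is its absolute size divided by the square root of its quasi-likelihood F. Sox9 was 150.2 and 214 in the uninjured WT mice and 213 and 171 in the uninjured cKO mice. At 1 d Sox9 was 303 in the WT mouse and 249 and 185 in the cKO mice. At 7 d the WT mice had 181 and 254 and the cKO mice 330.4 and 208, and at 14 d they had 203 and 250.0 and 189.9 and 218. Injured and uninjured mice overlapped at every time, and the 2 highest Sox9 values came from shallow libraries. The log2 difference in Sox9 from uninjured was 0.44 ± 0.38 (SE) at 1 d, 0.37 ± 0.33 at 7 d and 0.21 ± 0.32 at 14 d, with edgeR adjusted p of 0.821, 0.904 and 1.000. Between genotypes after injury, the lowest, median and highest Sox9 were 181, 250.0 and 303 in 5 WT mice and 185, 213 and 330.4 in 6 cKO mice. The genotypes overlapped over nearly their whole range, with a log2 difference of −0.15 ± 0.29.

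Sox2 in astrocytes was 136 and 141 in the uninjured WT and 128 and 121 in the uninjured cKO mice. After injury its lowest, median and highest normalized CPM were 139, 159 and 181 in the WT and 69.7, 130.4 and 165 in the cKO mice. The cKO mice reached lower, through both mice of 1 d at 95.9 and 69.7, yet the groups overlapped and the log2 difference of −0.48 ± 0.28 was not called (edgeR adjusted p = 1.000). The other astrocyte members tested, Sox4, Sox5, Sox6, Sox8 and Sox11, ranged over mice from 0 to 38.6, 194 to 620.0, 282 to 918, 27.5 to 121 and 0 to 30.1 normalized CPM. Markers of oligodendrocytes differed among these astrocyte libraries: the 6 genes, Mbp the most abundant, summed to 11351 and 12799 CPM in the uninjured mice of replicate 2 and to 1553 and 2134 CPM in those of replicate 1. Their part in the astrocyte values of Sox genes was not tested. The astrocyte markers themselves summed to 10514 to 14498 CPM in all 15 mice.

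In oligodendrocytes, Clusters 4 and 8 together, 7 members were tested and none had an unadjusted p under 0.05 with edgeR, DESeq2 or the block in these comparisons. Sox10 was 238 and 253 in the uninjured WT mice and 356 and 119 in the uninjured cKO mice. At 1 d it was 371 in the WT mouse and 239.9 and 314 in the cKO mice, and at 7 d 271 and 246 in the WT and 398 and 274 in the cKO mice. At 14 d the WT mice had 648 and 329 and the cKO mice 292 and 299.9. The mouse with 648 stood alone, and the uninjured mice alone covered 119 to 356, so the groups overlapped. The log2 difference in Sox10 was 0.41 ± 0.42 at 1 d, 0.28 ± 0.38 at 7 d, 0.65 ± 0.37 at 14 d and −0.25 ± 0.33 between genotypes, with no edgeR adjusted p of a member in this class below 0.868. The oligodendrocyte members Sox2, Sox8 and Sox6 ranged over mice from 24.4 to 144, 55.8 to 240.4 and 0 to 86.5 normalized CPM. A test of whether the injury difference itself depended on genotype called no member in any class. It called 0% of all genes in each class, so this is no result about the family. The lowest unadjusted p of a member in that test was for Sox2 in oligodendrocytes, 0.0112 with edgeR, at an adjusted p of 1.00. There 398 of all 8624 genes had an unadjusted edgeR p under 0.05.

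In oligodendrocyte precursor cells, 6 members were tested over 14 mice of 18 to 133 cells each. Sox4 was 9.76 and 72.4 in the uninjured WT mice and 132 in the cKO mouse that entered. At 1 d Sox4 was 243 in the WT mouse and 81.1 and 233 in the cKO mice, and at 7 d 258 and 118 in the WT and 449 and 106 in the cKO mice. At 14 d it was 334 and 106 in the WT and 473 and 158 in the cKO mice. Injured values ran higher in most mice but overlapped the uninjured mouse at 132, and in every pair at 7 d and 14 d replicate 1 exceeded replicate 2. The log2 difference in Sox4 was 1.65 ± 0.94 at 1 d, 1.73 ± 0.83 at 7 d and 1.98 ± 0.81 at 14 d. That at 14 d had the only unadjusted p under 0.05 in this class, 0.0246 with edgeR, and an adjusted p of 0.822, and DESeq2 and the block likewise had 1 such p each and no call. Sox6 ranged from 807 to 2117 normalized CPM over the 14 mice, and Sox10 from 146 to 1203. Oligodendrocyte markers in these precursor libraries summed to 3642 to 17994 CPM (median 5973), above the precursor markers at 2098 to 6056 CPM (median 4034). They were 4058 to 5163 CPM in the uninjured mice, 4810 to 13088 at 1 d, 4086 to 17994 at 7 d and 3642 to 8171 at 14 d, and their part in the Sox4 values was not tested. The median UMIs per cell were 1723.5 to 2722.5 in the uninjured precursor libraries, 353.5 to 1828.5 at 1 d, 365.5 to 4101 at 7 d and 2311.5 to 7703 at 14 d. The median percent of mitochondrial UMIs was 2.49 to 3.96, 2.73 to 2.99, 1.27 to 3.63 and 1.03 to 1.69 in the same order. The part of mitochondrial UMIs in the Sox4 values was not tested.

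In endothelial cells, 6 members were tested over 15 mice of 46 to 418 cells. Sox17 was 283 and 238 in the uninjured WT mice and 269 and 227 in the uninjured cKO mice. At 1 d Sox17 was 295 in the WT mouse and 261 and 128 in the cKO mice, and at 7 d 231 and 219 in the WT and 249 and 213 in the cKO mice. At 14 d the WT mice had 170.4 and 191 and the cKO mice 197 and 179.8. All 4 mice at 14 d lay below all 4 uninjured mice, while 1 d and 7 d overlapped with uninjured. The log2 difference at 14 d was −0.46 ± 0.24, and with 0% of genes called there it did not pass (edgeR unadjusted p = 0.0771, adjusted p = 0.670). The median UMIs per cell of these libraries were 959 to 2637 uninjured and 2179.5 to 6841 at 14 d, and the median percent of mitochondrial UMIs was 1.80 to 5.79 and 1.86 to 2.17. With cells thinned to 1000 UMIs the log2 difference at 14 d was −0.37 ± 0.30 (adjusted p = 0.960), and the part of mitochondrial UMIs was not tested. At 1 d and 7 d the log2 difference in Sox17 was −0.10 ± 0.28 and −0.16 ± 0.25, and between genotypes it was −0.19 ± 0.22.

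Sox18 spread more widely among endothelial samples than Sox17. It was 97.6 and 263 in the uninjured WT, 94.4 and 291 in the uninjured cKO, 24.8 and 215 in the WT at 14 d and 216 and 108 in the cKO mice at 14 d. After injury as a whole, the lowest, median and highest Sox18 were 24.8, 215 and 289 in the WT and 108, 163 and 349.6 in the cKO mice. Within 1 condition the mice lay far apart, as in the WT at 14 d, and the log2 differences were 0.18 ± 0.65 at 1 d, 0.07 ± 0.58 at 7 d, −0.42 ± 0.56 at 14 d and −0.04 ± 0.51 between genotypes. The class had 1 unadjusted p under 0.05 with edgeR, with DESeq2 and with the block. That of edgeR belonged to Sox2, a gene of at most 24.9 normalized CPM here (log2 difference at 14 d −2.80 ± 1.18, adjusted p = 0.654). Oligodendrocyte markers also varied in these endothelial libraries, from 993 and 1252 CPM in the uninjured mice of replicate 1 to 7391 and 7569 CPM in those of replicate 2 and 1271 to 1979 CPM at 14 d. Red blood cell markers ran from 1.94 to 15191 CPM (median 144) and astrocyte markers from 91.0 to 1750 CPM over the 15 mice. The part of these markers in the endothelial Sox values was not tested.

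**Figure D2:**
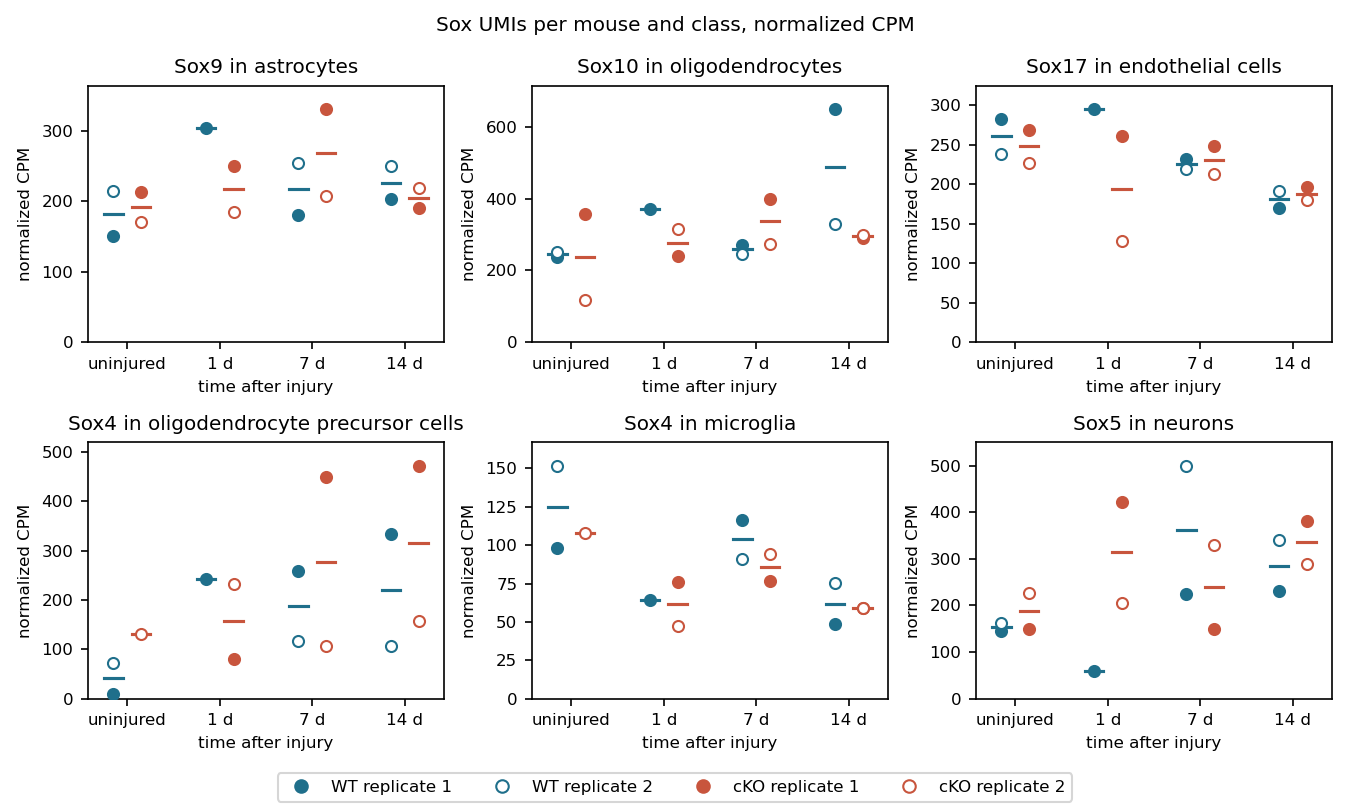
Normalized CPM (vertical axis) of Sox9 in astrocytes, Sox10 in oligodendrocytes, Sox17 in endothelial cells, Sox4 in precursors, Sox4 in microglia and Sox5 in neurons, by condition (horizontal axis); filled points are replicate 1, open points replicate 2 and lines the condition mean. Most conditions overlap, while the Sox17 values at 14 d and the Sox4 values of microglia at 1 d and 14 d lie below the uninjured ones and the neuronal Sox5 values at 14 d lie above them.

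In neurons, 8 members were tested, over libraries of 7570 to 2145779 UMIs. The lowest of these was the lone WT mouse at 1 d, and the median log2 difference of all genes at 1 d was −2.98, so no neuronal value of a member at 1 d or between genotypes is read here. Sox5, which shapes the identity of projection neurons in the cortex, was 146 and 162 in the uninjured WT and 149.7 and 226 in the uninjured cKO mice. At 7 d Sox5 was 224 and 500.4 in the WT and 149 and 329 in the cKO mice, and at 14 d 231 and 339.9 in the WT and 382 and 290.0 in the cKO mice. All 4 mice at 14 d lay above all 4 uninjured mice, the nearest pair being 231 and 226, while 7 d overlapped with uninjured. The log2 difference in Sox5 was 0.95 ± 0.37 at 7 d (edgeR adjusted p = 0.452) and 0.89 ± 0.35 at 14 d (adjusted p = 0.253), against 0.791% of all genes called at 14 d. The median UMIs per cell of the neuronal libraries were 1139 to 1652.5 uninjured and 1467.5 to 4216 at 14 d, and the median percent of mitochondrial UMIs was 1.02 to 6.96 and 1.05 to 1.38. With cells thinned to 1000 UMIs the log2 difference at 14 d was 1.28 ± 0.46 (adjusted p = 0.398), and the part of mitochondrial UMIs was not tested.

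Sox6 in neurons was 53.9 and 127 in the uninjured WT, 91.5 and 120.5 in the uninjured cKO, 134 and 181 in the WT at 14 d and 172 and 133 in the cKO mice at 14 d. Here too the 14 d mice were all above the uninjured ones, with a log2 difference of 0.71 ± 0.32 and an edgeR adjusted p of 0.328. Sox8 was 21.6 and 70.5 in the uninjured WT, 74.8 and 22.6 in the uninjured cKO, 16.2 and 25.7 in the WT at 14 d and 35.8 and 28.01 in the cKO mice at 14 d. These Sox8 groups overlapped, with a log2 difference of −0.86 ± 0.42 and an adjusted p of 0.367. With edgeR 5 member tests in neurons had an unadjusted p under 0.05, with DESeq2 1 and with the block 3, and none was called. The oligodendrocyte markers in neurons were 6812 and 7272 CPM in the uninjured mice of replicate 1, 11701 and 12677 in those of replicate 2, and 5532 to 7393 at 14 d. Their part in the neuronal values of Sox5, Sox6 and Sox8 was not tested.

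In microglia, Clusters 6 and 10 together, 2 members were tested, Sox4 and Sox5, over 14 mice of 38 to 576 cells. Sox4 was 97.9 and 152 in the uninjured WT and 108 in the cKO mouse that entered. At 1 d Sox4 was 64.1 in the WT and 75.7 and 47.4 in the cKO mice, and at 7 d 116 and 91.2 in the WT and 76.5 and 94.5 in the cKO mice. At 14 d it was 48.7 and 75.3 in the WT and 59.0 and 58.9 in the cKO mice. All mice at 1 d and 14 d lay below the 3 uninjured mice, with 0.248% and 0.345% of all genes called at these times, and those at 7 d overlapped. The log2 difference in Sox4 was −0.92 ± 0.46 at 1 d, −0.30 ± 0.35 at 7 d and −0.90 ± 0.35 at 14 d, and the last had an edgeR adjusted p of 0.352. Between genotypes the lowest, median and highest Sox4 were 48.7, 75.3 and 116 in the WT and 47.4, 67.4 and 94.5 in the cKO mice after injury, which overlapped. Oligodendrocyte markers in microglia summed to 1832 to 2960 CPM in the uninjured mice, 1372 to 2297 at 1 d and 959 to 1472 at 14 d. Immune markers summed to 736 to 1187 CPM in the uninjured mice, 591 to 1566 at 1 d, 1454 to 4627 at 7 d and 2230 to 3489 at 14 d. The median UMIs per cell were 1773 to 2182 in the uninjured microglial libraries, 442 to 2092.5 at 1 d and 3808 to 11636 at 14 d, and the median percent of mitochondrial UMIs was 2.64 to 3.58, 3.04 to 3.68 and 1.20 to 1.53. The part of these markers and of mitochondrial UMIs in the Sox4 values was not tested. With cells thinned to 1000 UMIs the log2 difference in Sox4 was −1.60 ± 1.00 at 1 d and −1.14 ± 0.72 at 14 d, with edgeR adjusted p of 0.389 and 0.731.

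The microglial class joins 2 clusters whose Sox4 levels differ, and their shares moved with time. Cluster 10, the lower in Sox4, gave 9.98 to 27.1% of the UMIs of the class in the uninjured mice, 32.8 to 47.0% at 1 d, 30.8 to 42.8% at 7 d and 48.4 to 60.6% at 14 d. Within Cluster 6, Sox4 was 103 to 161 CPM in 3 uninjured mice, 50.2 to 91.6 CPM in 3 mice at 1 d and 55.4 to 104 CPM in 4 mice at 14 d, so 14 d overlapped with uninjured there. With Cluster 6 alone the log2 difference was −0.99 ± 0.49 at 1 d and −0.80 ± 0.36 at 14 d, with edgeR adjusted p of 0.424 and 0.662. In Cluster 10 the uninjured mice had 0 to 1 UMI of Sox4 each, so no difference is read from that cluster.

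Sox5 in microglia had 0 UMIs among 477668 in the uninjured mice, and 11 UMIs of 582766 at 1 d (18.9 CPM), 18 of 1978026 at 7 d (9.10 CPM) and 59 of 4916989 at 14 d (11.999 CPM). Single mice differed within a time: WT 1 d replicate 1 and WT 7 d replicate 1 had 0 UMIs, and WT 7 d replicate 2 had 12 of the 18 at 7 d. No order of the times is read from these few UMIs, and none of the Sox5 tests was called. With edgeR 2 member tests in microglia had an unadjusted p under 0.05, with DESeq2 1 and with the block 2.

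**Figure D3:**
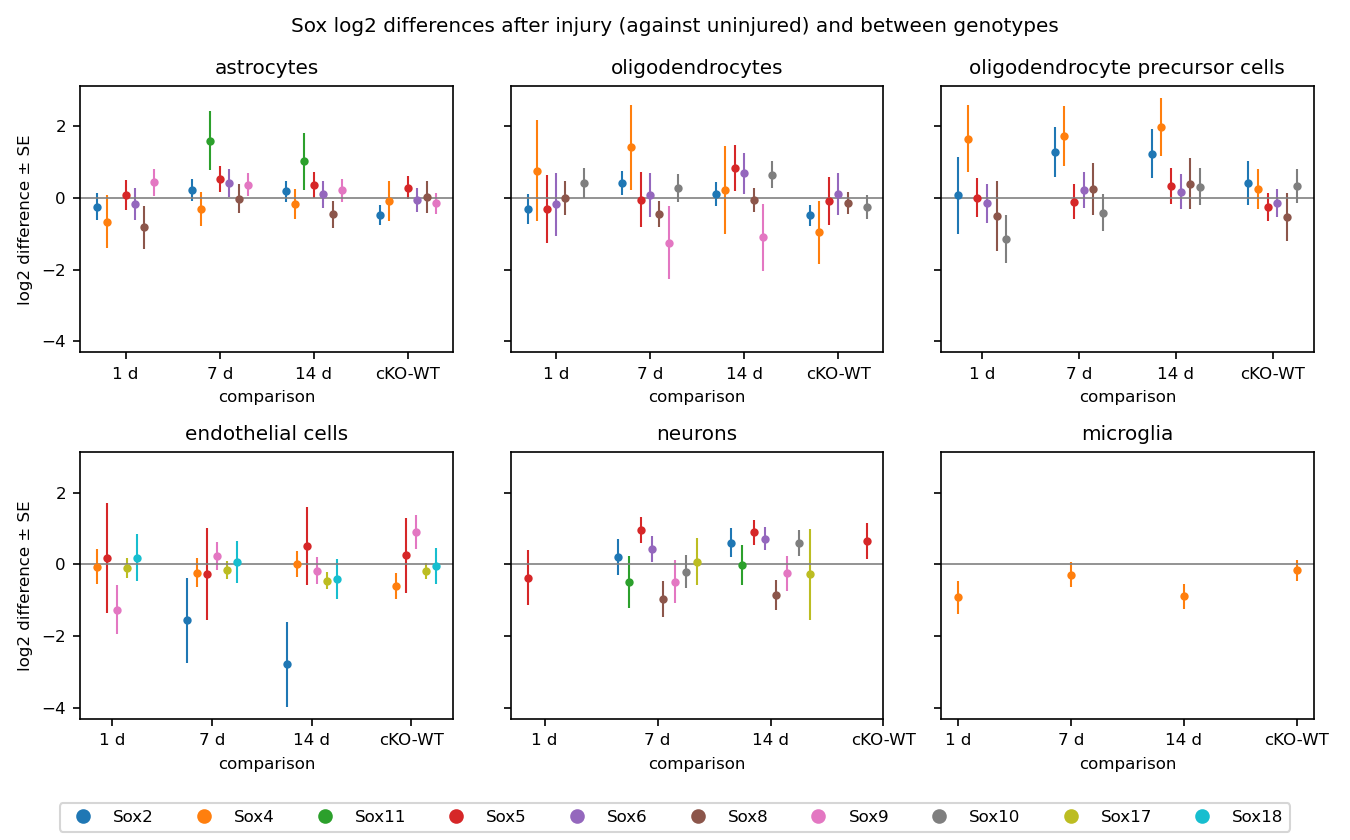
Log2 difference (vertical axis, points with bars of 1 SE) of each tested Sox member in the 6 classes. The comparisons (horizontal axis) are 1 d, 7 d and 14 d against uninjured and cKO against WT after injury. The 24 tests in which a condition had no UMI are omitted. Of the 120 tests shown none was called, and the bars are widest for the members with few UMIs.

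The genes that act with these factors were read from 6 lists, one per class, and described by counts and medians. In oligodendrocytes 14 of 14 oligodendrocyte genes were tested and 0 called, and their median log2 difference was 0.49, 0.39 and 0.31 at 1 d, 7 d and 14 d, against −0.05, 0.02 and 0.02 for all genes. Mbp, myelin basic protein, was at 9082 ± 7830.0 normalized CPM (SD, n = 15). In astrocytes 12 of 12 list genes were tested and 0 called, led by the glutamate transporter Slc1a2 at 6668 ± 1849 and the zinc finger factor Zbtb20 at 1925 ± 433 normalized CPM (n = 15). Their medians were −0.15, 0.13 and 0.13, against −0.27, −0.02 and 0.01 for all genes. In precursors 8 of 11 were tested and 0 called, with medians of −0.51, −0.28 and −0.30 against −0.14, 0.14 and 0.21, and Vcan and Olig1 led with 1981 ± 768 and 1017 ± 399 normalized CPM (n = 14). In endothelial cells 16 of 18 were tested and 0 called, with medians of −0.13, 0.04 and 0.00 against −0.09, −0.04 and −0.01, and the flow-responsive factor Klf2 and the ETS factor Fli1 led with 768 ± 375 and 623 ± 154 normalized CPM (n = 15). With 0 to 0.125% of all genes called in the comparisons of these 4 classes, 0 called list genes is close to what these shares give and is no result about the lists. Between genotypes the list medians in these classes were −0.02 in astrocytes, −0.09 in oligodendrocytes, −0.20 in precursors and −0.01 in endothelial cells, against 0.12, 0.06, 0.23 and 0.04 for all genes.

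A single gene was called in each of the remaining lists, in comparisons with 0.248% (microglia at 1 d) and 0.791% (neurons at 14 d) of all genes called. Of 10 microglial genes, all tested, P2ry12, the purinergic receptor of resting microglia, fell by 1.84 ± 0.36 on the log2 scale at 1 d (edgeR adjusted p = 0.0367), from 1713 to 1876 normalized CPM in 3 uninjured mice to 461 to 530 in 3 mice at 1 d. The list medians in microglia were −0.53, −0.05 and −0.05 at 1 d, 7 d and 14 d and 0.11 between genotypes, against 0.02, 0.17, 0.18 and 0.09 for all genes. Of 12 neuronal growth genes 10 were tested, and Tubb3, a neuronal tubulin, fell by 1.93 ± 0.44 at 14 d (edgeR adjusted p = 0.0296), from 48.5 to 169 normalized CPM in 4 uninjured mice to 16.5 to 48.7 in 4 mice at 14 d, which overlapped. In neurons the list medians were −0.55 at 7 d and −0.51 at 14 d, against −0.03 and 0.04 for all genes. Both calls depended on the setting, while the log2 difference stayed below 0 in every fit. With the replicate block P2ry12 had a log2 difference of −1.75 (adjusted p = 0.0625), and with DESeq2 Tubb3 had −1.95 (adjusted p = 0.925). With Cluster 6 alone P2ry12 had −1.48 and was not called (adjusted p = 0.168), and with Cluster 10 alone it had −3.28 and was called (adjusted p = 0.0262). The conditions of the cell names ended both calls, with adjusted p of 0.273 for P2ry12 and 0.803 for Tubb3. Over the alternatives other than leaving out 1 mouse, P2ry12 was called in 7 of 12 and Tubb3 in 6 of 11, with log2 differences of −3.28 to −1.48 and −2.53 to −1.09. Leaving out 1 mouse ended the call of P2ry12 in 8 of 12 fits, those without either WT uninjured, WT 7 d, cKO 1 d or cKO 14 d mouse, with adjusted p up to 0.122 and log2 differences of −1.89 to −1.80 over the 12. It ended that of Tubb3 in 7 of 15 fits, those without WT 1 d replicate 1, either WT 7 d mouse, WT uninjured replicate 2, WT 14 d replicate 2 or either cKO 14 d mouse, with adjusted p up to 0.424 and log2 differences of −2.30 to −1.41 over the 15.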

How the data were processed

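The authors aligned the reads with Cell Ranger (GRCm38/mm10) and processed them in Seurat under R 4.1.2, per their processing notes and methods. They deposited whole UMI counts per gene and cell, with a cell table of sample, cluster, annotation and the percent of mitochondrial UMIs. Per that deposited table the highest percent in a cell was 24.99 and the fewest genes 201, and how doublets were treated is not given in the sources used here. Cell types are the authors' annotation.

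From these counts, CPM was computed per mouse and cluster (at least 10 cells and 20000 UMIs, clusters with at least 3 mice). Counts summed per mouse (at least 10 cells) were tested with edgeR 4.0.16 (TMM, filterByExpr, quasi-likelihood, Benjamini-Hochberg) under R 4.3.3, all conditions as group means. DESeq2 1.42.0, no filter, another filter, a replicate block and leaving out each mouse were among the alternatives. The replicate number was the authors' batch in the cell table in 16 of 16 mice, so the numbers pair mice of a batch. The difference between replicate 1 and replicate 2 within a condition was correlated, over genes, between pairs of conditions. The median r over these pairs was 0.0274 in neurons to 0.262 in oligodendrocytes. Single pairs ran from −0.362 in precursors to 0.522 in endothelial cells. Named were all members, other Sox genes with at least 100 UMIs, the 3 most similar genes of each, and the called or else the 2 most abundant genes of each list; one list gene and some sequences are not reported here. On simulated data with 200 genes changed by a log2 of 2 at 7 d, edgeR recovered 24.0% in precursors (5417 genes) and 74.0% in endothelial cells (10985 genes). The members and lists were chosen with earlier results of these data known. Python 3.11.15, numpy 2.4.6, pandas 2.3.3, scipy 1.17.1 and matplotlib 3.10.9 were used.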

Additional observations from a re-analysis of the deposited data

How the results depend on the processing

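The count of Sox members called was 0 in every class under each alternative that could be fitted, 160 in all, with leave-one-out values of 0 to 0. With the replicate block it was also 0 in all 6 classes, and the block changed no other member's call. The shared-barcode, low-depth and leave-one-out settings for the levels were chosen after the data were seen. The cluster with the highest mean matched that of the main description for 8 to 10 of 10 members when 1 mouse was left out. It was the same for 6 of 10 with cells thinned to 1000 UMIs, where Sox8, Sox9, Sox10 and Sox11 were highest in Clusters 8, 5, 11 and 13. It was the same for 6 of 10 with replicate 2 only, where Sox4, Sox5, Sox10 and Sox11 were highest in Clusters 6, 11, 11 and 5. For co-detection the cluster of the highest share was the same in 3 of 6 pairs after thinning to 1000 UMIs. With thinned cells and with replicate 2 only, Cluster 15 lacked the 3 mice needed for a level, so Sox10 could not be highest there. In both cases fewer cells or mice enter, and the cause of the other moves was not tested further. Of 236 alternatives for a member's level in its highest cluster, 4 moved it by more than 1 SD, 1 each for Sox2 and Sox10 and 2 for Sox9. Of 332 alternatives for the log2 differences of members, 13 had the opposite sign, with neither value called.

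The number of all genes called over the 4 comparisons moved far more. In astrocytes, endothelial cells, microglia, neurons, precursors and oligodendrocytes it was 13, 1, 65, 82, 0 and 0. It was 15, 4, 208, 1, 3 and 5 with DESeq2, 156, 403, 460, 541, 26 and 129 with no filter on low counts, and 2, 1, 61, 375, 0 and 0 with at least 10 UMIs in 3 mice. The replicate block gave 22, 1, 82, 104, 1 and 7, the series of animal numbers as a covariate 293, 303, 140, 1143, 0 and 125, and the conditions of the cell names 0, 0, 26, 22, 0 and 0. Without the cells with shared barcodes it was 14, 1, 93, 60, 0 and 0. Leaving out 1 mouse gave 1 to 37, 0 to 37, 25 to 128, 2 to 120, 0 to 0 and 0 to 1. In astrocytes it was 2 with Cluster 5 alone, 34 with Cluster 7 alone and 6 with at least 30 cells per mouse. In microglia it was 3 with Cluster 6 alone, 106 with Cluster 10 alone and 13 with thinned cells, and in endothelial cells 4 with thinned cells. Cells kept from the first clustering gave 2 in endothelial cells.

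Some alternatives could not be fitted in full. Without the 4 shallow libraries, without WT 1 d replicate 1, and with thinned cells in astrocytes, neurons and precursors, only 7 d and 14 d were estimable. With at least 30 cells per mouse this held for neurons, and no comparison was estimable in precursors. Without cKO uninjured replicate 2, only the genotypes could be compared in precursors and microglia. A comparison of Sox proteins was planned and not run. A p that missed the threshold does not show that values did not differ.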
